A study of Gallus gallus with 5 samples.

Results

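Of 24749 regions that were accessible in all 5 ATAC-seq libraries of embryonic chick (Gallus gallus) retina, 2689 ranked higher in cells that were negative for a ThrbCRM1 reporter than in cells that were positive for it. ATAC-seq uses the Tn5 transposase, which cuts open DNA and leaves sequencing adapters behind. Retinas were taken at embryonic day 5, given 2 plasmids by electroporation, ThrbCRM1-GFP (the reporter) and CAG-Cherry (a general marker), and kept as explants for 48 h. Cells with Cherry were sorted into a GFP-positive population (ThrbPos, 3 libraries) and a GFP-negative population (ThrbNeg, 2 libraries). All 5 libraries thus come from electroporated, cultured retina, and the ThrbNeg cells are defined by the lack of detected GFP and not by a marker of their own. Whether the libraries of a population came from separate retinas or cultures is not given in the sources used here, so the spread between them may be partly technical.

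ThrbCRM1 belongs to the Thrb gene, which encodes thyroid hormone receptor beta. The element is active in restricted retinal progenitor cells that give rise to cone photoreceptors and horizontal cells, and the transcription factors Otx2 and Onecut1 act on it. The remaining electroporated cells of a retina at this age include multipotent progenitors and newly formed neurons such as retinal ganglion cells. A region can be listed as open in both populations and still rank higher in one of them, and the regions described here were chosen for such a difference in rank. Whether they are regulatory elements was not tested. In sorted pools of cells, a larger share of cells with an open region and more frequent cutting per cell cannot be told apart.

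The regions were chosen from the measured values as follows. In each library the unique intervals were ranked by their highest fold enrichment over the local background, as the authors deposited it, and the strongest 50000 were kept. Merging those that overlapped gave 79104 regions, and 27432 of them were overlapped in every library. The 24749 of these on numbered chromosomes and under 2000 bp wide are called shared regions below. Each shared region received a percentile in each library from the rank of its strongest interval, with 0 for the strongest region and 100 for the weakest. Intervals of equal fold enrichment were ranked by chromosome name and position, so regions with tied values have different percentiles. In ThrbPos replicate 3, for example, a fold enrichment of 3.47 stood at 94.8 on chromosome 20 and at 95.2 on chromosome 8. A region was retained as ThrbNeg-higher when its weaker ThrbNeg percentile was at least 10 points stronger than its strongest ThrbPos percentile. The difference between those percentiles is called the gap. The rule retained 10.9% of the shared regions. The mirror rule, with the populations exchanged, retained 2665 regions (10.8%), called ThrbPos-higher below. With a gap of any size there were 5307 (21.4%) and 5720 (23.1%), and at 3034 regions (12.3%) all 5 percentiles lay within 10 points of each other. Because percentiles are relative, a rise of some regions in a library must be met by a fall of others, and the 2 counts say nothing of total accessibility. No test between the populations is given for these choices, since the rule used them. The files hold no read counts, so sequencing depth is unknown. The lists held 71596 to 104902 unique intervals, and the weakest interval among the strongest 50000 had a fold enrichment of 2.67 to 3.22.

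By the rule, the ThrbNeg-higher regions were placed higher in the ThrbNeg than in the ThrbPos rankings, and their levels in either were broad. Their median percentile was 34.2 and 35.3 in ThrbNeg replicates 1 and 2. It was 75.3, 79.9 and 76.5 in ThrbPos replicates 1, 2 and 3, where the strongest single regions stood at 12.0, 16.5 and 13.0. The median over all shared regions is 50 in every library by construction. In fold enrichment over the local background, the regions had medians of 7.27 and 8.31 in the ThrbNeg libraries, where all shared regions had 5.98 and 6.90. In the ThrbPos libraries their medians were 4.15, 3.94 and 4.56, against 5.53, 5.66 and 6.24 for all shared regions. The medians were thus above those of all shared regions in one population and below them in the other, which the rule itself favours. Single regions departed from this, as described below. The median gap was 21.5 points, and the interquartile range was 15.2 to 33.0 points. A gap of at least 30 points was found in 817 regions, at least 50 points in 166 and at least 70 points in 5. The 2 ThrbNeg percentiles of a region differed by a median of 6.29 points, and the 3 ThrbPos percentiles spanned a median of 14.5 points. A span of 3 values tends to be wider than a difference of 2, so these medians do not compare the spread of the populations.

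**Figure D1:**
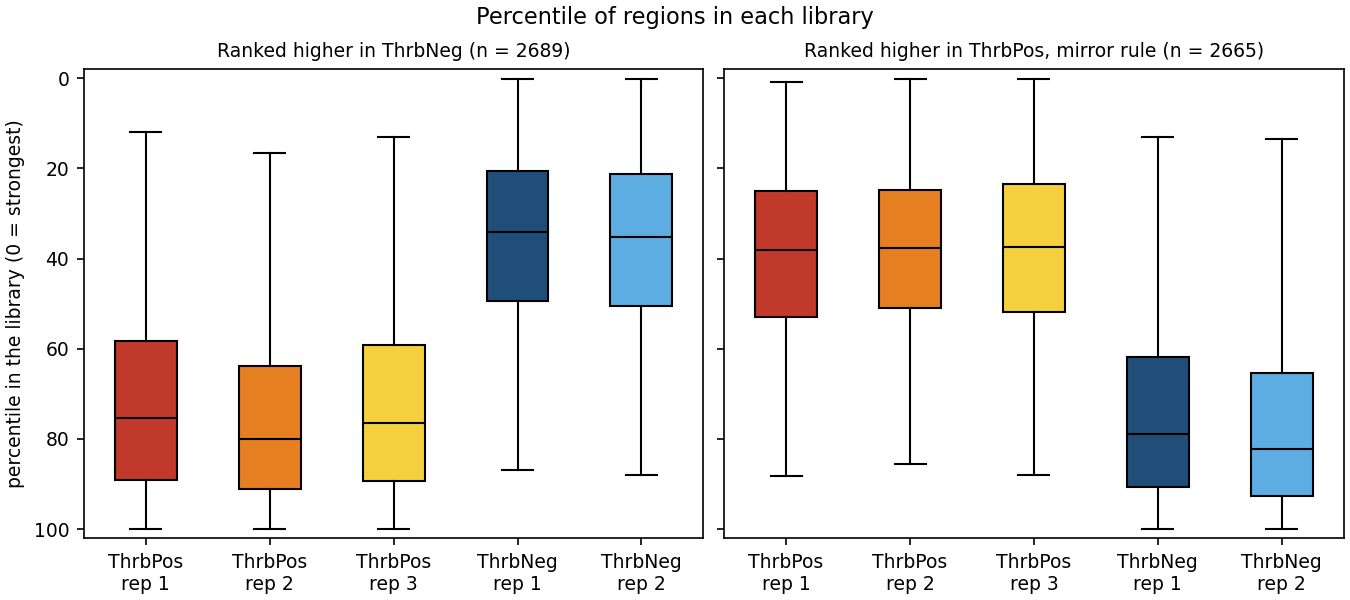
Percentile (vertical axis, 0 strongest, axis inverted) of the 2689 ThrbNeg-higher and the 2665 ThrbPos-higher regions in each library. Boxes give the interquartile range with the median line, and whiskers reach the lowest and highest region; the separation between populations was imposed by the rule, whereas the broad overlap of the whiskers shows how widely the regions differed in strength.

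By their average over the 2 populations, regions of the group were most frequent at middle strength. When all shared regions were divided into 5 classes of equal size by the average of their ThrbNeg and ThrbPos mean percentiles, the strongest class held 98 ThrbNeg-higher regions, which is 1.98% of its regions. The middle class held 885 (17.9%) and the weakest 304 (6.14%). The rule leaves little room for a gap of 10 points at either end of the ranking. A region strong in 1 population and weak in the other also averages to the middle, so the rule itself favours this profile. The ThrbPos-higher regions had a like profile, with 69 (1.39%), 868 (17.5%) and 362 (7.31%) in the strongest, middle and weakest classes. Among the ThrbNeg-higher regions, 203 had a mean ThrbNeg percentile under 10 (7.55%), and 107 ThrbPos-higher regions had a mean ThrbPos percentile under 10 (4.02%). The share of all shared regions with such a mean was not computed. In any single library about 10% of them stand under 10 by construction, so neither share is a sign of particular strength. The means cover 2 ThrbNeg and 3 ThrbPos libraries, so the 2 shares are not strictly alike.

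By their choice, the 10 regions with the largest gaps lay in the stronger part of the ThrbNeg rankings, at percentiles of 26.1 or less. In the ThrbPos rankings they lay in the weaker part, at 73.1 or more. Gaps of 67.5 to 72.8 points leave room for no other placement. Coordinates are 1-based in galGal5, the build named in the submitters' processing notes. The first, chr5:6548231-6548962, is 732 bp wide and had percentiles of 16.9 and 9.51 in ThrbNeg replicates 1 and 2. Its percentiles in ThrbPos replicates 1, 2 and 3 were 89.7, 93.2 and 95.0. Its fold enrichments were 9.28 and 12.0 in the ThrbNeg libraries and 3.44, 3.25 and 3.47 in the ThrbPos libraries, each relative to the background of its own library. Its strongest summit lay at the same base, 6548589, in both ThrbNeg libraries, and between 6548582 and 6548614 in the ThrbPos libraries. The same stretch was therefore listed in all 5 libraries.

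The second, chr3:53640821-53641728, was one of the strongest regions of the ThrbNeg cells. It had percentiles of 2.35 and 2.42 in the ThrbNeg libraries and of 74.0, 73.6 and 78.5 in the ThrbPos libraries. Its −log10 q values were 118 and 154 in the ThrbNeg lists and 11.7, 9.46 and 8.49 in the ThrbPos lists. The replicates of each population were close together at this region, within 5 points of each other. A ThrbNeg-specific region, one among the strongest intervals of both ThrbNeg libraries and in no ThrbPos list, lay within 50 kb of it.

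The third, chr4:11221808-11222159, is the narrowest of the 10 regions with the largest gaps, at 352 bp. It had fold enrichments of 9.09 and 9.96 in the ThrbNeg libraries and of 3.28, 2.91 and 3.29 in the ThrbPos libraries. The fourth was chr6:15226297-15227314 and the fifth chr4:79818016-79818812. The remaining 5 were chr13:5807267-5808151, chr8:28016943-28017637, chr2:100674734-100675557, chr1:96276936-96277599 and chr5:7800677-7801294. Over the 10 regions, ThrbNeg percentiles ran from 2.35 to 26.1 and ThrbPos percentiles from 73.1 to 99.8, a separation set by the choice. Fold enrichments ran from 8.10 to 14.4 in the ThrbNeg libraries and from 2.70 to 4.75 in the ThrbPos libraries. None of the 10 had another ThrbNeg-higher region within 50 kb, 4 had a ThrbPos-higher region there and 3 a ThrbNeg-specific one. Of all shared regions, 25.4%, 28.1% and 21.0% had such neighbours.

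The regions that stood highest in ThrbNeg cells had a wider range of levels in ThrbPos cells. The first by mean ThrbNeg percentile, chr2:2326499-2327345, had percentiles of 0.162 and 0.158 in the ThrbNeg libraries. In the ThrbPos libraries it had 17.6, 25.9 and 21.2, with fold enrichments of 8.65, 7.92 and 9.31, so it was a strong region in both populations. Its fold enrichments in the ThrbNeg libraries were 16.0 and 18.0.

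The second, chr3:88312393-88313033, had ThrbNeg percentiles of 0.711 and 0.145 and ThrbPos percentiles of 65.4, 93.1 and 73.5. Its fold enrichments were 14.4 and 18.1 in the ThrbNeg libraries against 4.66, 3.25 and 4.75 in the ThrbPos libraries. In the ThrbPos libraries this region was thus weaker than most shared regions, although the 3 libraries did not place it alike. The tenth, chr20:6745334-6746185, had ThrbNeg percentiles of 2.13 and 0.271 and ThrbPos percentiles of 65.3, 84.8 and 94.8. The last value, of ThrbPos replicate 3, was read at another part of the region. Its strongest summit there lay at 6746152, with 134 bp covered, whereas in the other libraries it lay between 6745625 and 6745661.

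The others, from the third to the ninth, were chr4:43289141-43289840, chr1:173427690-173428683, chr8:2227140-2227938, chr6:5786025-5786879, chr2:132433153-132433929, chr2:49668143-49668889 and chr1:25398769-25399549. ThrbPos percentiles over the 10 strongest regions ran from 12.0 to 94.8 and gaps from 10.4 to 64.7 points. The 94.8 is the value at the separate summit in chr20:6745334-6746185. The lowest gap was at chr2:49668143-49668889, where it was set by ThrbPos replicate 1, at 12.0, and ThrbNeg replicate 2, at 1.60. ThrbPos replicate 3 placed this region at 17.7. ThrbPos replicate 2 stood apart at 43.6 and did not set the gap. None of the 10 strongest was also among the 10 with the largest gaps.

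**Figure D2:**
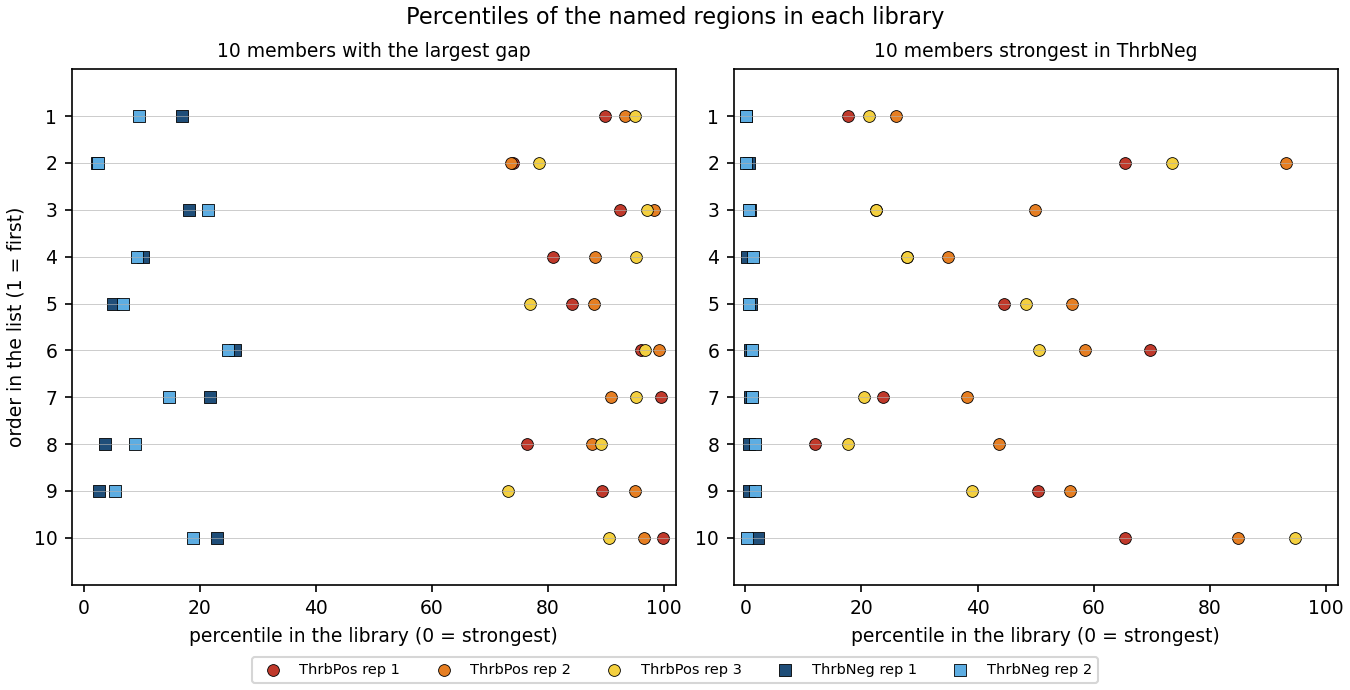
Percentile (horizontal axis, 0 strongest) in each library of the 10 ThrbNeg-higher regions with the largest gap, left, and of the 10 with the lowest mean ThrbNeg percentile, right, in the order of the text. Squares are ThrbNeg and circles ThrbPos libraries. On the left ThrbNeg values reach 26.1 and ThrbPos values start at 73.1, a separation set by the choice of the largest gaps. On the right ThrbNeg values reach 2.13 and ThrbPos values spread from 12.0 to 94.8, the last read at another summit than in the other libraries.

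At the threshold, regions inside and outside had like values. The 3 retained regions with the smallest gaps, chr3:30198647-30199253, chr14:4253314-4254540 and chr2:16918123-16919555, had gaps of 10.0 points. The 3 nearest regions outside, chr24:3215559-3216277, chr7:9357939-9358224 and chr2:20064255-20065020, had gaps of 9.99, 9.98 and 9.98 points. The ranking of tied fold enrichments by position can shift a percentile by more than these differences. At chr2:16918123-16919555 the gap was set by ThrbNeg replicate 1, at 47.5, while ThrbNeg replicate 2 placed the region at 20.5.

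Libraries that had not taken part in the choice had median percentiles on the side of their own population, beside 50 for all shared regions. For each library, regions were chosen by the same rule from the other 4 libraries and then read in the library left out, which had only to list the region among its strongest 50000 intervals. The libraries it is compared with had taken part in the choice, so only its own percentile is independent of it. The choice had already placed those libraries on their side, which by itself raises the shares given for the library left out above those of all shared regions. Without ThrbPos replicate 1 the rule chose 3474 regions (14.0% of the shared regions), at which this library had a median percentile of 70.3. Of these, 91.9% were weaker in it than in both ThrbNeg libraries, compared with 37.8% of all shared regions. The share was 94.3% of 3173 regions (12.8% of the shared regions) for ThrbPos replicate 2 and 91.8% of 3404 (13.8%) for ThrbPos replicate 3. Over all shared regions, 37.9% and 38.4% lay on that side in these libraries. Their median percentiles at the chosen regions were 76.6 and 71.3.

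For the ThrbNeg libraries only 1 other ThrbNeg library made the choice. Without ThrbNeg replicate 1, 3907 regions (15.8%) were chosen, and 84.9% were stronger in it than in all 3 ThrbPos libraries, compared with 30.7% of all shared regions. Without ThrbNeg replicate 2, 3955 regions (16.0%) were chosen, and 86.6% were, compared with 31.5%. The median percentiles of these 2 libraries at the chosen regions were 41.9 and 42.2. The full gap of 10 points was met in the library left out at 77.4%, 84.7% and 79.0% of the regions for ThrbPos replicates 1, 2 and 3, and at 68.8% and 68.0% for ThrbNeg replicates 1 and 2. Over all shared regions it was met at 15.8 to 21.5% in the 5 libraries. The regions that met it are the 2689 by construction.

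The names of the libraries in the peak lists fall into 2 series, which were treated as a possible batch. The first holds replicate 1 of each population, and the second holds ThrbPos replicates 2 and 3 and ThrbNeg replicate 2. The series share no library, so one could be read at regions chosen in the other. The first series alone chose 6490 regions with a gap of at least 10 points (26.2% of the shared regions). In the second series, 70.8% of them had a gap of any size in the same direction, compared with 36.7% of all shared regions. At least 10 points in the same direction were met at 52.1%, compared with 19.7% of all shared regions. A gap of at least 10 points the other way was found at 3.04%, compared with 19.2%. The second series alone chose 4865 regions (19.7%). In the first series, 85.5% of these had a gap of any size in the same direction, compared with 48.1% of all shared regions. At least 10 points in the same direction were met at 69.5%, compared with 26.2% of all shared regions. At least 10 points the other way were found at 5.34%, compared with 26.6%. Most regions chosen in one series thus had the same direction in the other. Across the 24749 regions, the differences of the 2 series had a Pearson correlation of 0.74, given as a description because all 5 libraries share the same merged regions.

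**Figure D3:**
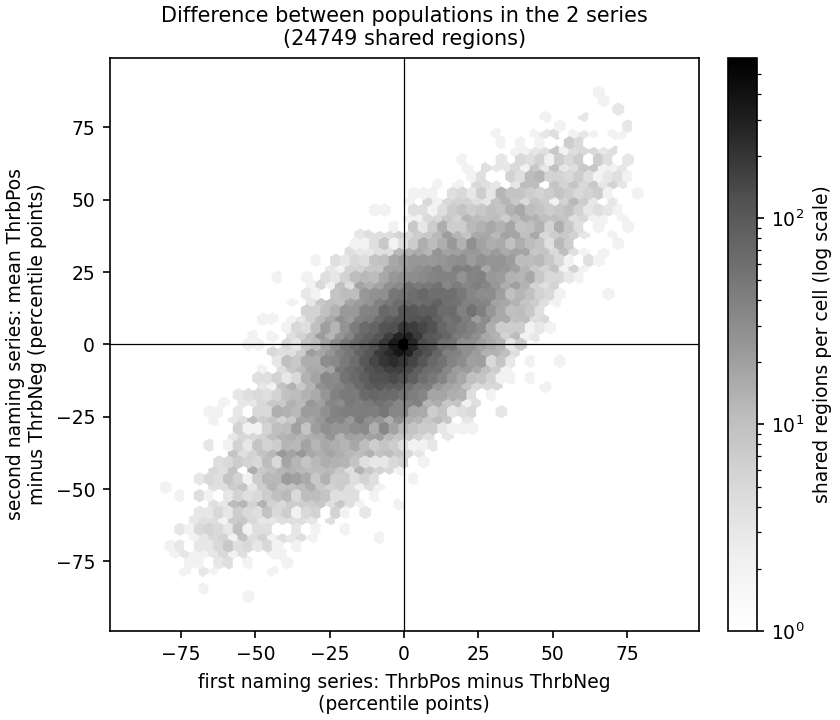
Difference in percentile between ThrbPos and ThrbNeg (positive values are stronger in ThrbNeg) in the first naming series, horizontal axis, and in the second, vertical axis, for 24749 shared regions. Darker cells hold more regions on a log scale; the regions lie along the rising diagonal, with a Pearson correlation of 0.74.

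In size the ThrbNeg-higher regions were close to other shared regions. Their median width was 828 bp, compared with 867 bp for all shared regions and 770 bp for the ThrbPos-higher ones. The interquartile range was 667 to 1044 bp for the ThrbNeg-higher regions and 632 to 1175 bp for all shared regions. Among shared regions of 500 to under 1000 bp, 13.7% were ThrbNeg-higher and 13.5% ThrbPos-higher. Among those of 1000 to under 1500 bp the shares were 9.65% and 7.46%, among those under 500 bp 7.50% and 10.1%, and among those of 1500 bp or more 3.94% and 6.99%. Strength differed between these width classes too, with a median mean percentile of 74.2 under 500 bp and 35.2 at 1000 to under 1500 bp, and its part in the shares was not tested.

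The stretch of a region that was listed as open differed between the populations along with its rank. A median of 740 and 712 bp of each ThrbNeg-higher region was covered by intervals in ThrbNeg replicates 1 and 2. In ThrbPos replicates 1, 2 and 3 it was 554, 369 and 405 bp. Over all shared regions the medians were 712 and 713 bp in the ThrbNeg and 708, 548 and 551 bp in the ThrbPos libraries. Coverage comes from the same peak calls as the rank and is no separate evidence of a difference. More than 1 summit was listed in 38.5% and 44.5% of the regions in the ThrbNeg libraries and in 47.3%, 40.0% and 34.7% in the ThrbPos libraries. The mean over the 5 libraries was 41.0% ± 4.99 (SD, n = 5), and for all shared regions it was 48.1% ± 3.54 (SD, n = 5). In each of the 5 libraries, the share was lower for ThrbNeg-higher regions than for all shared regions. The same was true of the ThrbPos-higher regions, whose mean was 41.4% ± 3.22 (SD, n = 5). Both groups held few regions of 1500 bp or more, and the part of width in these lower shares was not tested.

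The position of the strongest summit was most stable between the ThrbNeg libraries. It differed by a median of 16 bp between ThrbNeg replicates 1 and 2, and by more than 150 bp at 2.71% of the ThrbNeg-higher regions. Between 2 ThrbPos libraries it differed by more than 150 bp at 9.63 to 10.2% of these regions, and between a ThrbPos and a ThrbNeg library at 7.55 to 9.74%. Over all shared regions the between-population shares were 8.71 to 10.2%. The share between the ThrbNeg libraries was the lowest there too, at 6.51%, beside 7.78 to 8.10% between 2 ThrbPos libraries. A change of the strongest summit between the populations was therefore about as frequent at ThrbNeg-higher regions as at shared regions in general. At ThrbPos-higher regions the order was the other way round, with 3.11 to 3.60% between ThrbPos libraries and 7.69% between the ThrbNeg libraries. In both groups, fold enrichment was higher in the population whose summits varied less, a direction that the rule itself sets. Whether fold enrichment bears on the position of the summit was not tested.

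The ThrbNeg-higher regions were unevenly spread over the chromosomes. Chicken chromosomes are numbered roughly by size, and the many small ones, called microchromosomes, are dense in genes and rich in G and C. On chromosomes 1 to 5, 12.4% of the 14729 shared regions were ThrbNeg-higher. On chromosomes 6 to 10 it was 10.6% of 4239, and on chromosomes 11 and above 7.02% of 5781. The shares of ThrbPos-higher regions were 11.5%, 10.6% and 8.98%. Chromosome 2 had the highest share of ThrbNeg-higher regions, at 13.3% (468 of 3517). Among chromosomes with at least 100 shared regions, chromosome 28 had the lowest, at 1.93% (4 of 207). Of chromosomes 1 to 9, 8 held more ThrbNeg-higher than ThrbPos-higher regions, chromosome 4 being the exception with 277 and 287. Of the 18 chromosomes from 10 to 28 with at least 100 shared regions, 17 held fewer, the exception being chromosome 11 with 61 and 53. Some of these counts were nearly equal, with 34 and 35 on chromosome 20 and 7 and 8 on chromosome 22. On chromosomes 24 and 25 they were 16 and 17, and 5 and 6. Among the larger chromosomes, chromosome 7 was nearly equal too, with 110 and 108.

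The lower share on small chromosomes was seen in both series. Within the first series, 28.6% of shared regions on chromosomes 1 to 5 and 20.9% on chromosomes 11 and above were at least 10 points stronger in ThrbNeg. Within the second, the shares were 21.5% and 14.9%. For the mirror rule the 2 series went opposite ways, from 24.9% to 30.1% in the first and from 19.5% to 17.9% in the second. The lower share was also seen in each of the 5 strength classes. In the second strongest class it was 15.4% on chromosomes 1 to 5 and 5.79% on chromosomes 11 and above, and in the weakest class 6.58% and 4.58%. The share of ThrbPos-higher regions was also lower on the small chromosomes in all classes but the weakest, for example at 11.8% and 6.38% in the second strongest, and was 7.13% and 7.21% in the weakest. Base composition and distance to genes were not measured.

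**Figure D4:**
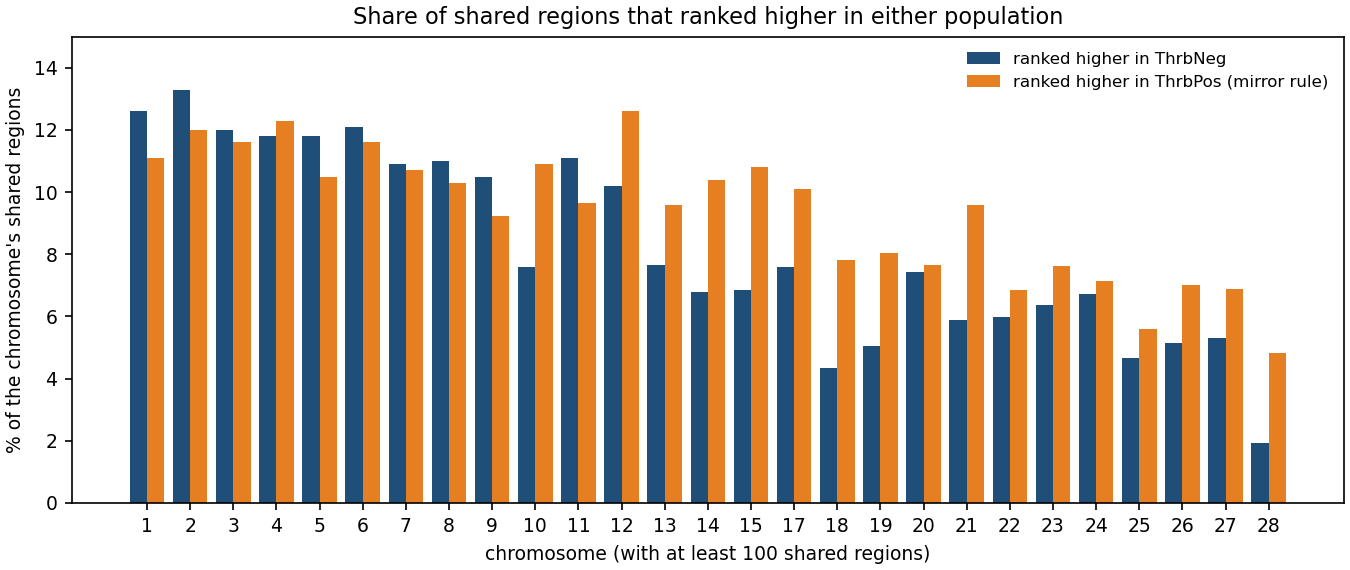
Share of the shared regions of each chromosome (vertical axis, percent) that were ThrbNeg-higher, blue, or ThrbPos-higher, orange, for chromosomes with at least 100 shared regions. The blue bars fall from 13.3% on chromosome 2 to 1.93% on chromosome 28 and are mostly below the orange ones from chromosome 10 on.

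Most ThrbNeg-higher regions stood alone. Joined in steps of at most 50 kb, they formed 1851 single regions, 310 pairs and 67 runs of 3 or more. The ThrbPos-higher regions were much alike, with 1799 single regions, 308 pairs and 75 runs of 3 or more. The longest run held 6 regions in either group. Another ThrbNeg-higher region lay within 50 kb of 31.2% of ThrbNeg-higher regions, compared with 25.4% of all shared regions. A ThrbPos-higher region lay within 50 kb of 28.5% of them, compared with 28.1% of all shared regions. The share near another ThrbNeg-higher region also differed by chromosome. On chromosomes 1 to 5 it was 31.7% of ThrbNeg-higher and 27.0% of all shared regions. On chromosomes 6 to 10 it was 31.7% and 27.5%, and on chromosomes 11 and above 28.1% and 19.5%. Of the ThrbPos-higher regions, 32.5% lay within 50 kb of another of their own kind, compared with 28.1% of all shared regions, and 29.2% near a ThrbNeg-higher region, compared with 25.4%. Within 10 kb, 6.58% of ThrbNeg-higher regions had another of their kind and 6.95% a ThrbPos-higher region, compared with 5.19% and 6.40% of all shared regions. The nearest other shared region, at a median distance of 13196 bp, was stronger in ThrbNeg on average at 51.1% of ThrbNeg-higher regions, compared with 46.8% of all shared regions. Its median difference in percentile was 0.42 points, small beside the median of 35.3 points at the ThrbNeg-higher regions themselves.

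A ThrbNeg-specific region lay within 50 kb of 24.6% of ThrbNeg-higher regions (661 of 2689), compared with 21.0% of all shared regions and 23.8% of ThrbPos-higher regions. A ThrbPos-specific region, defined the other way round, lay within 50 kb of 26.5%, compared with 25.7% of all shared regions and 27.6% of ThrbPos-higher regions. Within 10 kb, a ThrbPos-specific region lay near 7.47% of ThrbNeg-higher, 5.96% of all shared and 6.57% of ThrbPos-higher regions. For a ThrbNeg-specific region within 10 kb, these shares were 4.61%, 4.43% and 6.64%. On chromosomes 11 and above, a ThrbNeg-specific region lay near 21.4% of ThrbNeg-higher regions and 16.0% of all shared regions, and on chromosomes 1 to 5 near 25.3% and 22.8%. The ThrbPos-higher regions had 21.8% and 25.3% there. On chromosomes 6 to 10 the shares were 24.4% of ThrbNeg-higher, 20.2% of ThrbPos-higher and 21.8% of all shared regions. No test was run on these shares, since neighbouring regions are not replicates of a population.

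**Figure D5:**
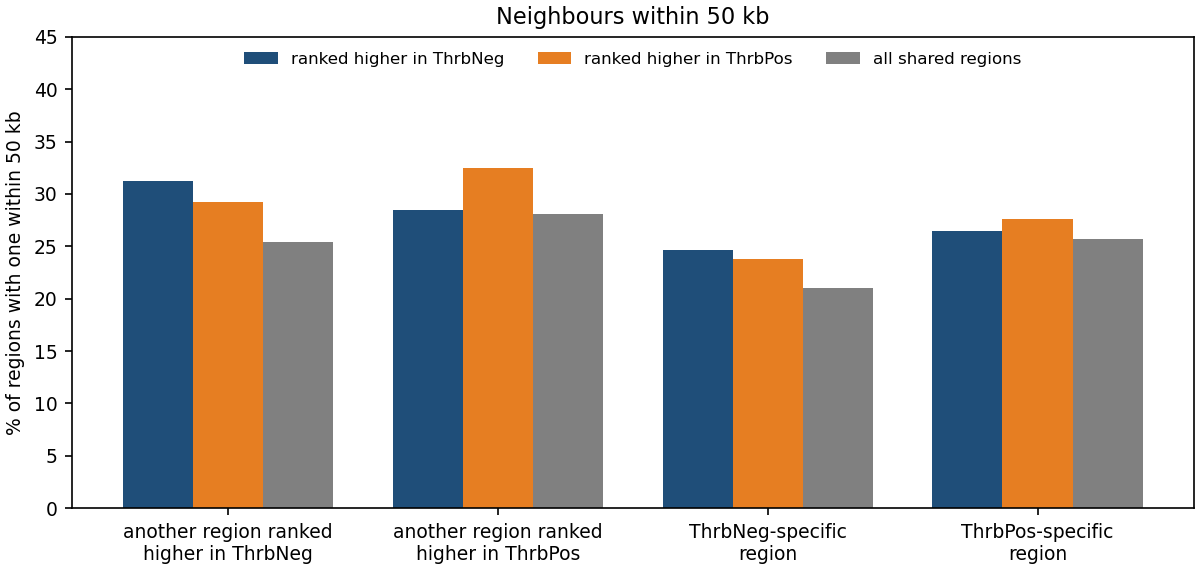
Share of regions (vertical axis, percent) with a region of the kind named on the horizontal axis within 50 kb, for ThrbNeg-higher regions (blue), ThrbPos-higher regions (orange) and all shared regions (grey). Regions of either kind had one of their own kind more often than all shared regions did, at 31.2% against 25.4% and 32.5% against 28.1%, and ThrbPos-higher regions also had a ThrbNeg-higher one more often, at 29.2% against 25.4%.

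The longest run held 6 ThrbNeg-higher regions, at chr2:16809970-16977752. These 168 kb hold 8 shared regions, and the 2 that the rule did not retain also had a stronger mean percentile in ThrbNeg. The last member, chr2:16976992-16977752, had the largest gap of the run, 53.7 points, with percentiles of 35.6 and 29.5 in the ThrbNeg libraries and of 89.3, 95.3 and 92.0 in the ThrbPos libraries. One ThrbPos-specific region lay inside the run. The next 2 runs, chr6:14112366-14220580 and chr11:11940788-12046215, held 5 ThrbNeg-higher regions each among 7 shared regions, and the other 2 in each also had a stronger mean percentile in ThrbNeg. In the run on chromosome 6, gaps ranged from 10.1 to 38.0 points, and the strongest region, chr6:14112366-14113352, had ThrbNeg percentiles of 6.02 and 3.14. Its ThrbPos percentiles were 45.8, 54.0 and 44.0. In the run on chromosome 11, gaps ranged from 14.3 to 29.9 points. Genes at or near the named regions, markers of retinal cell types and sequence motifs were not analysed here, because no annotation or genome of the lists' build was used.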

How the data were processed

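Each library has 1 deposited peak list of its own, and no replicates were pooled. Per the submitters' processing notes, Bowtie2, MACS2 and galGal5 were used; versions, duplicate removal, Tn5 shift and filters are not given in the sources used here. For each summit the authors deposited its fold enrichment over local background, which is a ratio, together with −log10 values of p and q. Their score column was not used. The smallest −log10 q was 1.30 in each list. These values are not normalized between libraries, so regions were chosen and compared by ranks within a list, turned into percentiles among the shared regions. Fold and −log10 q values are printed as the authors' own description of each list. Regions were merged at an overlap of 1 bp. Groups and replicate numbers come from the sample titles. Analysis used Python 3.11.15, pandas 2.3.3 and numpy 2.4.6. The code of the rule was run on simulated lists with planted regions and little noise, which does not show its error rate in these lists.

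The rule, the lists and the comparisons were chosen with earlier results of these data known. The named regions are the 10 with the largest gap, the 10 with the lowest mean ThrbNeg percentile, the 3 on each side of the threshold and the 3 longest runs with steps of at most 50 kb. The largest members of these runs, and regions where 1 library stood apart, were chosen after their values were seen. The planned gene lists and motif words were not run, because they need a galGal5 genome.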

Additional observations from a re-analysis of the deposited data

How the results depend on the processing

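The number of ThrbNeg-higher regions, 2689 in the report, was 1474 with a gap of at least 20 points and 1378 with the strongest 30000 intervals (15351 shared regions). It was 4272 with a replicate block (both same-numbered pairs at least 10 points apart), 6490 in the first naming series alone and 4865 in the second. A stricter gap, fewer regions or fewer conditions set these shifts by construction. With 1 library left out the number ran from 3504 to 4319, and moved most without ThrbNeg replicate 1 (4110) and ThrbNeg replicate 2 (4319), where 1 ThrbNeg library sufficed. Ranking by −log10 p gave 2781 regions, which overlapped 2181 of the 2689. A limit of −log10 q of 2 and a 50% overlap left all 2689, but neither setting could change the choice. The lowest −log10 q at the strongest intervals of the shared regions was 3.26, and each interval lies wholly within its merged region. The share with a ThrbNeg-specific region within 50 kb, 24.6%, was 26.9% with a gap of 20 points, 5.59% with 30000 intervals, 48.4% with 70000, 30.2% with a −log10 q of at least 2, and 28.1 to 44.1% with 1 library left out. Over all shared regions it was 21.0%, 3.88%, 42.9%, 25.7% and 24.9 to 39.0% under the same settings. Within 10 kb it was 4.61% and within 200 kb 64.6%, against 4.43% and 60.5% of all shared regions and 6.64% and 64.4% of ThrbPos-higher ones. Regions under 1000 bp had more than 1 summit in 30.5%. Median width stayed between 727 and 874.5 bp in every alternative run. The mean share of regions that met 10 points in a library left out was 75.6%, and 71.6 to 79.2% under the alternatives run for it, which were chosen after seeing the data, like the reading of one series at regions chosen in the other and the shares by chromosome.

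The populations share replicate numbers 1 and 2. The difference between ThrbPos replicates 1 and 2 correlated with that between ThrbNeg replicates 1 and 2 at 0.19 over the shared regions, and 2 pairs do not show whether same-numbered libraries belong together. The 10 regions with the largest gaps remained ThrbNeg-higher with 70000 intervals, with a replicate block and without each library. A replicate block or a library left out asks less than the rule, so those outcomes were largely set in advance. By −log10 p, 7 of the 10 were still shared regions, and with 30000 intervals 1 was, and these stayed ThrbNeg-higher. Of the 10 strongest in ThrbNeg, chr2:49668143-49668889 fell below 10 points with 70000 intervals (8.09) and without ThrbNeg replicate 1 (9.92), ThrbPos replicate 2 (9.75) or ThrbPos replicate 3 (9.90). Of the 3 just inside the threshold, none stayed with 70000 intervals or without ThrbPos replicate 2. The libraries left out in these cases had not set the gaps. The falls without them came from percentiles taken over more shared regions, 26030 to 26502 against 24749. With no read counts, depth could not be matched between libraries.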

Other observations

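Of 831 windows of 1 Mb with at least 15 shared regions, 705 held both ThrbNeg-higher and ThrbPos-higher regions, and 60 held no ThrbNeg-higher region. The highest share of ThrbNeg-higher regions was 47.1% (8 of 17), in the window chr11:12000001-13000000, which also holds part of a run named above. There the median region was 21.2 points stronger in ThrbNeg in the first naming series and 24.7 points in the second, and 2 regions were ThrbPos-higher. The next was chr4:36000001-37000000, with 8 of 18 (44.4%) and medians of 12.0 and 18.6 points. These windows were chosen for their high share after the values were seen.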
